A study of Mus musculus with 4 samples.

Results

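Periosteum, the sheath of connective tissue that covers bone, holds macrophages of its own, and the comparison described here set 2 sorted fractions of Cx3cr1-expressing leukocytes from it against each other by the surface protein ACE. The ACE+ library was made from CD45+ Cx3cr1+ ACE+ cells and the ACE- library from CD45+ Cx3cr1+ ACE- cells, both sorted from the periosteum of male wild-type C57BL/6 mice on postnatal day 28. No treatment and no engineered allele was involved in either group. Each fraction is 1 library, the number of animals behind it is not stated, and these are 2 of the 4 samples of the series. Members were taken by their sort label, and the genes described are those with a mean of at least 5 CPM (reads scaled to library sizes set by the TMM method). These came to 9656 of the 14939 genes listed, or 64.6%, and the other 5283 lay below that mean.

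ACE, the angiotensin-converting enzyme, is a membrane peptidase best known for making angiotensin II, and in the mononuclear phagocyte lineage it also trims peptides. In mouse blood it marks nonclassical monocytes, which have little Ly6C, high Cx3cr1 and CD11a (Itgal), crawl along the inside of vessels and depend on the nuclear receptor Nr4a1. Classical monocytes carry Ly6C and Ccr2, leave the blood on inflammation and can turn into nonclassical monocytes or into tissue macrophages. Tissue macrophages clear dead cells and iron and are known by genes such as Mertk, Adgre1 and those of complement C1q.

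The ACE+ library held 10944171 reads on 14376 genes and the ACE- library 12561196 reads on 13866 genes. With 1 library per group there is no spread between replicates, so no difference below has a replicate check and no p-value is given. Brackets hold 95% intervals, which take in counting error alone. A gene is called higher or lower where its log2 ratio of ACE+ over ACE-, taken on CPM + 1, is 1 or more in either direction and 1 lies outside the interval of its fold. By this rule 913 genes (9.46%) were called higher and 832 (8.62%) lower in ACE+ cells, and these shares are the background for each count of list members below. The median log2 ratio of all measured genes was -0.08, with quartiles at -0.53 and 0.43. High ratios reached further than low ones, with 104 genes at least 8-fold higher and 2 genes at least 8-fold lower. Higher genes made up 52.3% of calls, against 67.2% with plain totals, 60.9% when the 100 genes of most reads were left out of the totals and 65.3% with ratios centred by gene length.

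**Figure D1:**
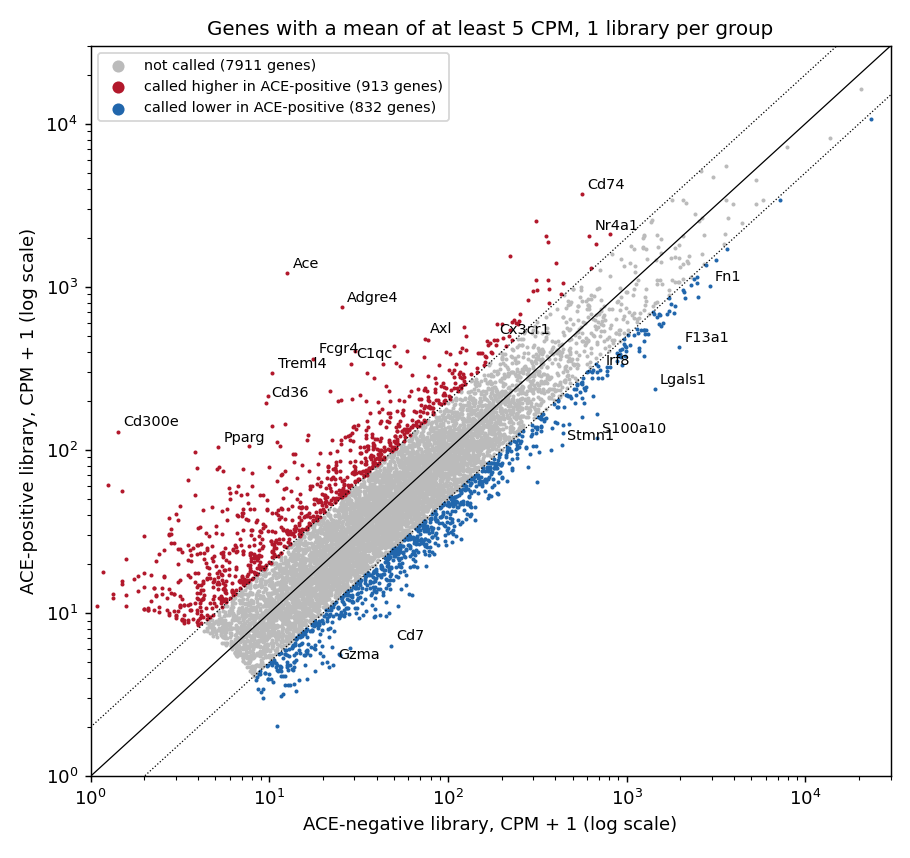
Level of each measured gene in the ACE+ library (vertical axis, CPM + 1, log scale) against the ACE- library (horizontal axis, CPM + 1, log scale), where the solid line marks equal levels and the dotted lines a 2-fold ratio. The 913 genes called higher extend further from the line than the 832 called lower, and Ace and Cd300e lie furthest out.

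The ratio went with the length of the gene as listed in the table. The median log2 ratio was -0.51 in the shortest of 5 equal bins of measured genes (243 to 2620 bases), then -0.27, -0.08 and 0.08, and 0.35 in the longest (7873 to 123179 bases). In the shortest bin 140 genes were called higher and 398 lower, and in the longest 308 were called higher and 38 lower. Where a call ends when ratios are centred on the median of genes of like length, the centred value is given beside it. Centring also added calls: 881 genes were called higher after it, of which 723 had been called before, and 469 lower, of which 378 had. The share of this relation in each difference was not tested.

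**Figure D2:**
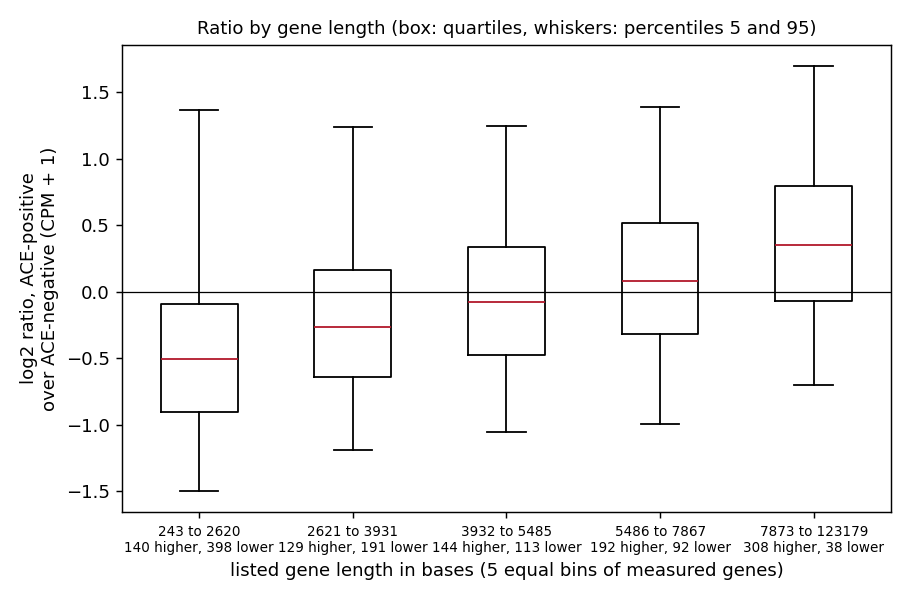
Log2 ratio of ACE+ over ACE- (vertical axis, CPM + 1) for measured genes in 5 equal bins by listed length in bases (horizontal axis), with boxes at the quartiles, whiskers at percentiles 5 and 95 and a red line at the median. The median moves up from -0.51 in the shortest bin to 0.35 in the longest.

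The genes of the sort were checked first. Ace (ENSMUSG00000020681, GRCm38 chromosome 11, 105967945 to 105989964) had 13931 reads in ACE+ and 139 reads in ACE- cells, which is 1215 CPM in ACE+ and 11.6 CPM in ACE- cells. Cx3cr1, the fractalkine receptor, stood at 475 CPM in ACE+ against 179.960 CPM in ACE- cells, and Ptprc, which encodes CD45, at 1584 CPM in ACE+ against 831 CPM in ACE- cells. In fold terms this is 2.64-fold higher [2.51 to 2.77] for Cx3cr1, which is called, and 1.91-fold higher [1.86 to 1.95] for Ptprc, which is not. The ACE label parts the libraries at the level of its own gene, and both gate genes are present in both libraries. Cd300e, Adgre4 and Treml4, further markers of nonclassical monocytes, parted them in the same direction. Cd300e, an activating receptor of the CD300 family, had 1474 reads in ACE+ and 5 reads in ACE- cells and stood at 129 CPM in ACE+ and 0.417 CPM in ACE- cells. Adgre4, an adhesion G protein-coupled receptor, stood at 749 CPM in ACE+ against 24.4 CPM in ACE- cells, and Treml4, a receptor of the TREM family, at 296 CPM in ACE+ against 9.43 CPM in ACE- cells. These are 308-fold higher [132 to 950.3] for Cd300e, 30.6-fold higher [27.3 to 34.5] for Adgre4 and 31.4-fold higher [26 to 38.2] for Treml4 in ACE+ cells. In a sorted bulk sample, fewer cells of a type and less RNA per cell cannot be told apart.

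The promoters of these 4 genes and of Fcgr4, a further nonclassical monocyte gene, are shown because they belong to the genes that part the libraries most. Windows are those of RefSeq on GRCm38.p6, from 250 bases before to 50 after the start, read 5′ to 3′ along the gene. Capitals mark the letters TATAAA (the TATA box) or GAGGAAGT (the core that PU.1, the Ets factor of the myeloid lineage, binds) on either strand, and these motifs do not overlap here.
Ace: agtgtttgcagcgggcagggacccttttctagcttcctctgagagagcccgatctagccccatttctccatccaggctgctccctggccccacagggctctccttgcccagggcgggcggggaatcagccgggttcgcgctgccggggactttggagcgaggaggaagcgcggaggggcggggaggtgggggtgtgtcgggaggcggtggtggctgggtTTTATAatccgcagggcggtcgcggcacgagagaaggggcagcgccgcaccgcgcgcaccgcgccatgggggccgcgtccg
Cd300e: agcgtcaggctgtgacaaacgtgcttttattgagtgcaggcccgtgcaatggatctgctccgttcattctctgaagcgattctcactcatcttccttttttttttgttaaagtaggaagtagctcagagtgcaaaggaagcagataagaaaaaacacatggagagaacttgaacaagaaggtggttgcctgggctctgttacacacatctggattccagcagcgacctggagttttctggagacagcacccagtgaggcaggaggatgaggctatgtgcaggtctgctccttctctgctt
Adgre4: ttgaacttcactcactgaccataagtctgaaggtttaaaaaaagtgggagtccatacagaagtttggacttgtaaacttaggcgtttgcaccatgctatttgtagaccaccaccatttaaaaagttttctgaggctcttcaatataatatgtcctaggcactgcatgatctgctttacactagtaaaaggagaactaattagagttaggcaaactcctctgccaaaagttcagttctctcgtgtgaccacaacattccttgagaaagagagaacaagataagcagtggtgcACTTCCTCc
Treml4: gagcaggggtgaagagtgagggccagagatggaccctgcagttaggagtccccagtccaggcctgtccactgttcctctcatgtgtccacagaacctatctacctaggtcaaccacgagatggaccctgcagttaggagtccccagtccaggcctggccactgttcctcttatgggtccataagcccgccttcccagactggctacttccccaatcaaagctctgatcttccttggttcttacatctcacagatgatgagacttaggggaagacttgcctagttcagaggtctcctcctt
Fcgr4: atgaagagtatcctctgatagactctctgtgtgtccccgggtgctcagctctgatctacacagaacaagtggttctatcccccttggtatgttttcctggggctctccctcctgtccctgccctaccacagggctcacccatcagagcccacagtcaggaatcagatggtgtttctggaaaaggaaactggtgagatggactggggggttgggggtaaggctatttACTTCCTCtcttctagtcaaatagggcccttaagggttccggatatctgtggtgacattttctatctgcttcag
They lie at chr11:105967698-105967997, plus strand (Ace), chr11:115061990-115062289, minus strand (Cd300e), chr17:55749734-55750033, plus strand (Adgre4), chr17:48264045-48264344, plus strand (Treml4) and chr1:171018676-171018975, plus strand (Fcgr4). The Ace window holds 1 TATA box match starting at position -31, counted from the start, on the opposite strand. The PU.1 core starts at position 42 in Adgre4 and at -24 in Fcgr4, both on the opposite strand, and neither motif is among the letters of the Cd300e and Treml4 windows. Over 32851 RefSeq windows of the same length, 13.6% hold the TATA box letters and 3.2% the PU.1 core. A count over the genes furthest up and down is void, because windows were found for 36 of the 50 furthest up and 33 of the 50 furthest down. A window was kept where its start site lay within 1000 bases of the listed gene start. The 50 were ranked among called genes and genes below the 5 CPM mean.

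Beyond the sort markers, surface genes of nonclassical monocytes were higher in ACE+ cells: 9 of 13 measured members (of 14 listed) were called higher and 0 lower, with a median log2 ratio of 1.82. Fcgr4, the activating receptor for IgG2 antibodies, stood at 361 CPM in ACE+ and 16.6 CPM in ACE- cells. Cd274, which encodes the inhibitory ligand PD-L1, stood at 75 CPM in ACE+ and 4.09 CPM in ACE- cells. Itgal, the alpha chain of the integrin LFA-1 that these cells use to crawl, stood at 1094 CPM in ACE+ and 309.9 CPM in ACE- cells, which is 3.53-fold higher [3.40 to 3.66]. Ceacam1, an adhesion receptor of the carcinoembryonic antigen family, was 5.12-fold higher [4.75 to 5.51], and Slamf7, a receptor that binds its own kind, 5.02-fold higher [4.23 to 6.0]. Spn, which encodes the sialomucin CD43 and is a usual sorting marker of nonclassical monocytes, did not part the libraries, with 378 CPM in ACE+ and 319 CPM in ACE- cells (1.18-fold, not called). Pecam1 was also close to equal, at 51.5 CPM in ACE+ against 48.6 CPM in ACE- cells.

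Effector and regulator genes of the same cells gave 11 higher and 0 lower of 13 measured, with a median of 2.13. Eno3, an enolase better known from muscle, stood at 212 CPM in ACE+ and 8.84 CPM in ACE- cells, and Gngt2, a G protein gamma subunit, at 327 CPM in ACE+ and 52.8 CPM in ACE- cells. Ear2, a ribonuclease of the eosinophil-associated family, was 6.95-fold higher [6.41 to 7.53]. Stk10, a kinase that acts on ezrin-type linker proteins, stood at 565 CPM in ACE+ against 122 CPM in ACE- cells. Hes1, a repressor induced by Notch, stood at 39.4 CPM in ACE+ against 2.0 CPM in ACE- cells. Pou2f2, which encodes the factor Oct-2, was 4.49-fold higher [3.98 to 5.08], and Tnfrsf1b, the receptor TNFR2, 2.96-fold higher [2.84 to 3.08]. Nr4a1, on which these cells depend, stood at 2056 CPM in ACE+ and 613 CPM in ACE- cells.

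**Figure D3:**
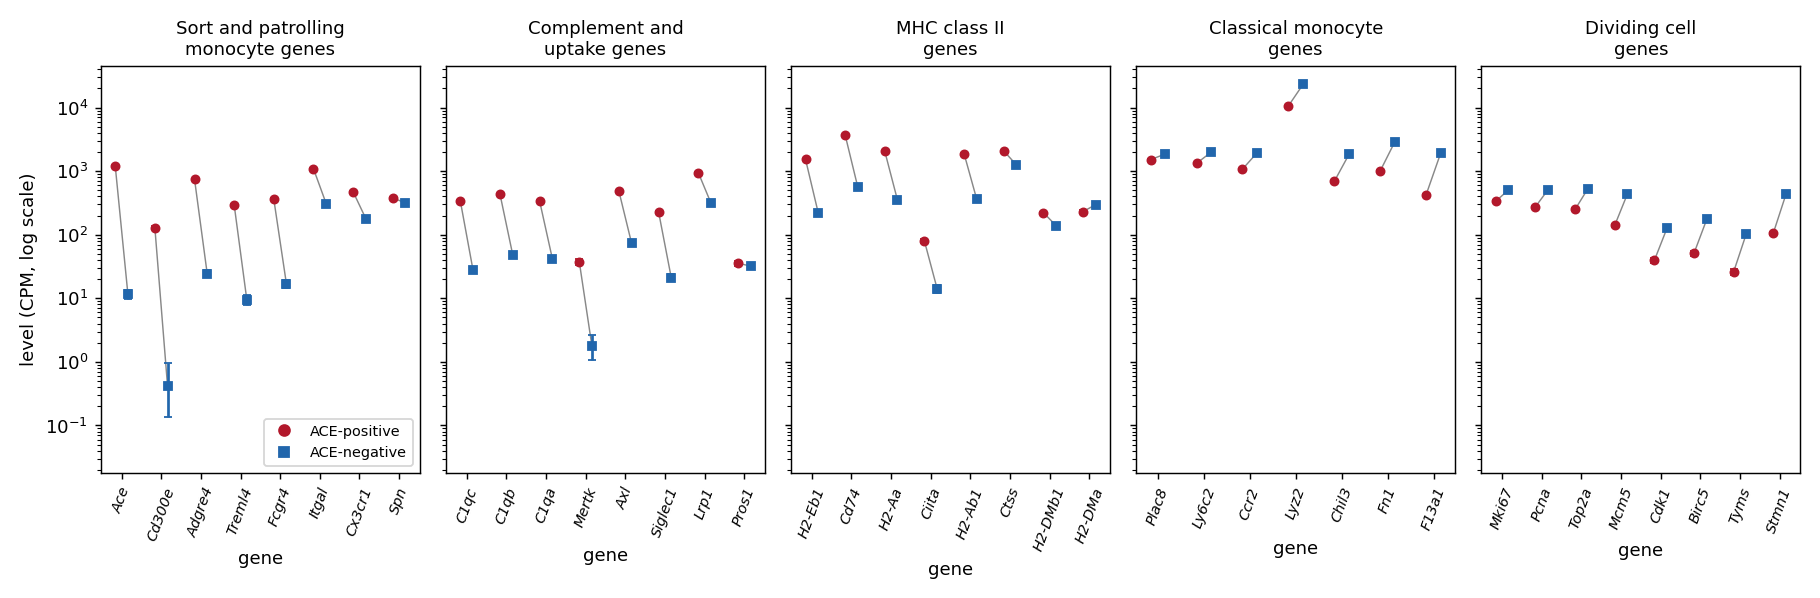
Level of genes in 5 panels in the ACE+ library (red circles) and the ACE- library (blue squares), in CPM on a log scale, with exact Poisson 95% intervals that are mostly smaller than the symbols. The nonclassical monocyte, complement, uptake and MHC class II panels lie mostly higher in ACE+ cells, while the classical monocyte genes and the genes of dividing cells shown lie lower.

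Classical monocyte genes were lower in ACE+ cells and remained abundant there. Of 15 measured members 0 were called higher and 9 lower, with a median of -1.10, and after centring by gene length 4 calls were left, with a median of -0.79. Lyz2, which encodes lysozyme and took the most reads of any nuclear gene in both libraries, stood at 10628 CPM in ACE+ and 23269 CPM in ACE- cells and its call ended on centring (log2 ratio -1.13 before and -0.42 after). F13a1, the coagulation factor XIII A chain of monocytes and macrophages, had the lowest ratio of the list, at 427 CPM in ACE+ and 1958 CPM in ACE- cells. Fn1, fibronectin, stood at 1011 CPM in ACE+ against 2916 CPM in ACE- cells. Ccr2, the receptor that lets classical monocytes leave bone marrow, stood at 1076 CPM in ACE+ and 1955 CPM in ACE- cells, and Ly6c2 at 1328 CPM in ACE+ and 1998 CPM in ACE- cells, neither of them called. Ly6c2 has a near-identical neighbour, Ly6c1, listed at 4.62 CPM in ACE+ and 3.25 CPM in ACE- cells, so how reads were split between them is uncertain. S100 proteins, annexins and galectins, many of which classical monocytes carry, gave 1 higher and 9 lower of 20, with 2 lower calls left after centring. The galectin-1 gene Lgals1 (236 CPM in ACE+ and 1434 CPM in ACE- cells) and S100a10, a partner of annexin A2 (117 CPM in ACE+ and 678 CPM in ACE- cells), kept their calls, and the one higher gene was Lgals3bp, the galectin-3 binding protein, at 436 CPM in ACE+ and 186 CPM in ACE- cells.

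Macrophage core genes were higher in ACE+ cells in 17 of 25 measured members (of 29 listed) and lower in 0, with a median of 1.82. Csf1r, the receptor for the growth factor CSF1 on which monocytes and macrophages depend, stood at 1821 CPM in ACE+ and 675 CPM in ACE- cells, and Adgre1, which encodes F4/80, at 373 CPM in ACE+ and 163 CPM in ACE- cells. Mrc1, the mannose receptor, was 6.93-fold higher [6.22 to 7.75], Siglec1, which encodes sialoadhesin, 10.9-fold higher [9.54 to 12.4], and Cd163, the scavenger receptor for haemoglobin bound to haptoglobin, 2.89-fold higher [2.44 to 3.45]. The levels of Mrc1 and Cd163 in ACE+ cells were 217 and 43.7 CPM, against 31.4 and 15.1 CPM in ACE- cells. Several genes that define tissue-resident macrophages elsewhere lay below 5 CPM in mean and were not measured here. Among them were Lyve1 (7 reads in ACE+, 9 reads in ACE-), Folr2 (16 reads in ACE+, 0 in ACE-), Vsig4 (26 reads in ACE+, 2 in ACE-) and Marco (12 reads in ACE+, 0 in ACE-). Timd4, a receptor for phosphatidylserine, just passed, at 13.1 CPM in ACE+ against 1.75 CPM in ACE- cells. Not all core genes differed: Cd14, a co-receptor for endotoxin, stood at 139.8 CPM in ACE+ against 179 CPM in ACE- cells, Trem2 at 35.2 CPM in ACE+ against 43 CPM in ACE- cells and the adaptor Tyrobp at 1037 CPM in ACE+ against 1479.7 CPM in ACE- cells, none of them called.

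Regulators of the lineage included genes called higher and genes called lower. Of 46 measured factors 13 were called higher and 3 lower (2 after centring), with a median of 0.41. Of all measured genes 9.46% were called higher and 8.62% lower, and the lower count is near that share. Epas1, which encodes the hypoxia factor HIF-2alpha, stood at 15.1 CPM in ACE+ against 0.751 CPM in ACE- cells, and Spic, the Ets factor that red pulp macrophages of the spleen need, at 53.6 CPM in ACE+ against 5.01 CPM in ACE- cells. Prdm1, which encodes the repressor Blimp-1, stood at 32.2 CPM in ACE+ against 3.0 CPM in ACE- cells. Maf, a factor of mature macrophages that restrains their division, was 5.01-fold higher [4.16 to 6.07]. Called lower were Irf8, a factor that monocyte and dendritic cell progenitors need, with 307 CPM in ACE+ and 709 CPM in ACE- cells (2.31-fold lower [2.22 to 2.41]), together with Cebpd and Tfec. The call of Cebpd ended on centring by gene length (-1.07 before and -0.82 after). Spi1, which encodes PU.1, was at 544 CPM in ACE+ against 477 CPM in ACE- cells, and Runx2, the bone factor that some myeloid cells also use, at 52.3 CPM in ACE+ against 52.5 CPM in ACE- cells. Cebpb, which nonclassical monocytes need, reached 733 CPM in ACE+ against 406 CPM in ACE- cells. It was called higher after centring and not before (log2 ratio 0.85 before and 1.40 after).

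Among nuclear receptors 4 of 18 were called higher and 0 lower. Pparg, a fatty acid sensor, stood at 103 CPM in ACE+ and 4.17 CPM in ACE- cells, and Nr1h3, which encodes the oxysterol sensor LXRalpha, at 28.5 CPM in ACE+ and 3.59 CPM in ACE- cells. Rara, the retinoic acid receptor, was 2.09-fold higher [1.93 to 2.26], while the glucocorticoid receptor Nr3c1 (133 CPM in ACE+ against 107 CPM in ACE- cells) and the LXR and PPAR partner Rxra (60.7 CPM in ACE+ against 56.2 CPM in ACE- cells) were not called. Of Krüppel-like factors, zinc finger proteins that act in monocyte differentiation among much else, 2 of 11 were called higher and 0 lower, with 4 higher after centring. Klf2, Klf4 and Klf6 stood at 1698, 961 and 1741 CPM in ACE+ cells, against 1096, 557 and 1243 CPM in ACE- cells. The ones called before centring were Klf7, at 26.9 CPM in ACE+ against 9.26 CPM in ACE- cells, and Klf1, the erythroid factor, at 9.94 CPM in ACE+ against 3.09 CPM in ACE- cells.

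**Figure D4:**
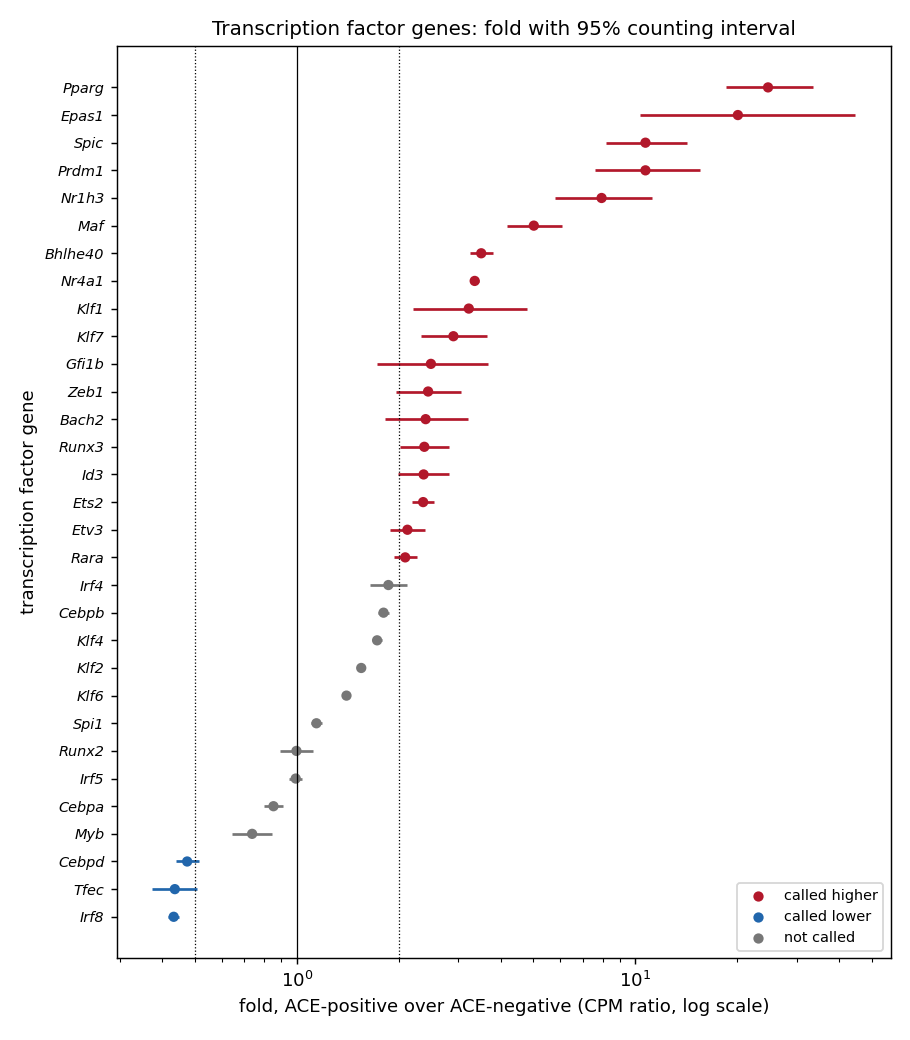
Fold of ACE+ over ACE- (horizontal axis, CPM ratio, log scale) for transcription factor genes, with the 95% counting interval as a line and dotted lines at 2-fold in either direction. Pparg and Epas1 lie furthest right, at 24.7-fold and 20.1-fold, Spi1 and Runx2 lie near the line of equal levels, and Irf8, Tfec and Cebpd lie to the left.

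Receptors that bind antibodies, lipids, sugars and sialic acids differed by family member. The CD300, LILR and PIR families, immunoglobulin-type receptors that activate or inhibit myeloid cells, gave 10 higher and 3 lower of 23 measured (of 35 listed). Lilra5, an activating receptor, had 693 reads in ACE+ and 3 reads in ACE- cells, a ratio of 241-fold with a wide interval [82.3 to 1174]. Cd300ld stood at 199 CPM in ACE+ against 23.1 CPM in ACE- cells and Cd300c2 at 244 CPM in ACE+ against 44.3 CPM in ACE- cells. Lilr4b and Lilrb4a, receptors with closely similar sequences whose reads may be shared, stood at 591 and 318 CPM in ACE+ cells, against 201 and 145 CPM in ACE- cells. Cd300c went the other way, with 2.35 CPM in ACE+ and 13.2 CPM in ACE- cells, as did Lilra6, with 43.5 CPM in ACE+ and 111 CPM in ACE- cells. Pirb, the paired inhibitory receptor, was nearly equal at 374 CPM in ACE+ against 358 CPM in ACE- cells.

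Fc receptors bind antibodies on targets to be engulfed. Of 15 measured receptors and adaptors 2 were called higher and 0 lower (5 higher after centring). Beside Fcgr4 the second was Fcgr2b, the inhibitory receptor, at 391 CPM in ACE+ and 146 CPM in ACE- cells. Fcgr3, the low-affinity activating receptor, stood at 352 CPM in ACE+ against 331 CPM in ACE- cells, and Fcgr1, the high-affinity one, at 209 CPM in ACE+ against 150.3 CPM in ACE- cells. Their signalling chain Fcer1g (892 CPM in ACE+ against 634 CPM in ACE- cells) and the kinase Syk (520.3 CPM in ACE+ against 336 CPM in ACE- cells) were not called before centring either.

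Lectin, scavenger and sialic acid receptors gave 10 higher and 4 lower of 29. Cd36, a scavenger receptor and fatty acid transporter, stood at 194 CPM in ACE+ and 8.59 CPM in ACE- cells. Clec4n, which encodes the fungal mannan receptor Dectin-2, was 4.59-fold higher [3.34 to 6.42]. The lectin receptors Clec4a1 and Clec4a3 were 3.23-fold higher [3.04 to 3.42] and 2.64-fold higher [2.50 to 2.79]. Clec5a (50.3 CPM in ACE+ against 130.2 CPM in ACE- cells), Clec4a2 (96.5 CPM in ACE+ against 213 CPM in ACE- cells) and Siglech, a marker of plasmacytoid dendritic cells (8.81 CPM in ACE+ against 32.6 CPM in ACE- cells), were called lower, with Clec4a2 at -0.82 after centring and no longer called. Msr1, a scavenger receptor for modified lipoproteins, was also lower in level without a call, at 81.9 CPM in ACE+ against 154 CPM in ACE- cells.

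Receptors and bridging proteins for the uptake of dying cells were higher in ACE+ cells in 11 of 22 measured members (of 28 listed) and lower in 0, with a median of 1.12. After centring the median was 0.69, with 11 higher calls. Of the TAM receptor kinases, which sense phosphatidylserine through bridging proteins, Mertk stood at 37.5 CPM in ACE+ and 1.75 CPM in ACE- cells and Axl at 482 CPM in ACE+ and 73.2 CPM in ACE- cells, both called higher, and Tyro3 had 0 reads in ACE+ and 4 in ACE- cells. Of the bridging proteins, Gas6 was 9.29-fold higher [6.98 to 12.6], while Pros1 stood at 35.7 CPM in ACE+ against 32.2 CPM in ACE- cells and Mfge8 at 17.4 CPM in ACE+ against 31.9 CPM in ACE- cells, neither of them called. Havcr2, which encodes the phosphatidylserine receptor TIM-3, stood at 64.4 CPM in ACE+ against 2.50 CPM in ACE- cells. Stab1 and Stab2, large scavenger receptors of macrophages and sinusoids, were 8.44-fold higher [6.72 to 10.7] and 16.1-fold higher [10.5 to 26]. Lrp1, a large endocytic receptor, was 3.02-fold higher [2.91 to 3.13] at 953 CPM in ACE+ cells, and the alpha-v and beta-5 integrin chains Itgav and Itgb5 were 4.52-fold higher [3.93 to 5.20] and 4.70-fold higher [4.23 to 5.23].

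Complement genes were called higher in ACE+ cells in 9 of 15 measured members and lower in 1. The 3 chains of C1q, the recognition subunit of the classical pathway, stood at 336, 433 and 338 CPM in ACE+ cells (C1qa, C1qb and C1qc), against 42.1, 48.7 and 27.7 CPM in ACE- cells. C3ar1, the receptor for the C3a fragment, was 8.77-fold higher [6.33 to 12.4], and C4b, a classical pathway component, 6.66-fold higher [4.98 to 9.08]. C3, the central component, stood at 763 CPM in ACE+ against 1403 CPM in ACE- cells and was not called. Cfp, properdin, which stabilises the alternative pathway, was 2.23-fold lower [2.13 to 2.34], a call that ended on centring (-1.15 before and -0.60 after).

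In the list of lipid handling, which in macrophages serves the cholesterol taken up with dead cells, 9 of 23 were called higher and 0 lower, with a median of 0.63. Apoe, the apolipoprotein that macrophages secrete, stood at 2529 CPM in ACE+ and 312 CPM in ACE- cells. Fabp4, a fatty acid carrier of macrophages and adipocytes, stood at 76.6 CPM in ACE+ against 2.92 CPM in ACE- cells. Abca1 and Abcg1, the transporters that hand cholesterol to lipoproteins, were 11.7-fold higher [8.99 to 15.6] and 3.38-fold higher [3.03 to 3.77], and Mylip, a ubiquitin ligase induced by LXR, 2.74-fold higher [2.33 to 3.23]. Genes of cholesterol synthesis and of LDL uptake were listed apart: 0 of 23 were called higher and 1 lower (Ebp, a sterol isomerase, whose call ended on centring at -0.68).

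For iron and heme the counts were 8 higher and 0 lower of 19. Slc40a1, the iron exporter ferroportin, stood at 121 CPM in ACE+ and 26.5 CPM in ACE- cells, and Hmox1, heme oxygenase, at 335 CPM in ACE+ and 109.7 CPM in ACE- cells. Slc11a1, which pumps metal ions out of phagosomes, was 3.26-fold higher [3.02 to 3.52], and Trf, transferrin, 2.47-fold higher [2.36 to 2.58]. For storage and uptake, the ferritin heavy chain gene Fth1 stood at 3247 CPM in ACE+ against 2151 CPM in ACE- cells, Ftl1 at 400.3 CPM in ACE+ against 373 CPM in ACE- cells and the transferrin receptor Tfrc at 115 CPM in ACE+ against 118 CPM in ACE- cells, none of them called.

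Lysosomal hydrolases and membrane proteins were called higher at a share close to the 9.46% of all measured genes. Of 40 hydrolases and membrane proteins 4 were called higher (3 after centring) and 0 lower, and of 17 subunits of the proton pump V-ATPase 1 was higher and 0 lower. Psap, the precursor of the saposins that help to break down sphingolipids, stood at 7159.6 CPM in ACE+ against 7913 CPM in ACE- cells. Several genes that osteoclasts use to dissolve bone were called higher. Acp5, tartrate-resistant acid phosphatase, stood at 171 CPM in ACE+ and 40.4 CPM in ACE- cells, Ctsk, cathepsin K, at 138 CPM in ACE+ and 28.4 CPM in ACE- cells and Atp6v0d2, a V-ATPase subunit, at 40.3 CPM in ACE+ and 9.43 CPM in ACE- cells. Tnfrsf11a, which encodes RANK, the receptor that starts osteoclast formation, stood at 24.6 CPM in ACE+ against 5.51 CPM in ACE- cells, and Nfatc1, the factor that drives it, at 161 CPM in ACE+ against 69.2 CPM in ACE- cells. Over the osteoclast list 9 of 16 measured members were called higher and 0 lower. Fusion and late genes stayed below the 5 CPM mean: Ocstamp had 78 reads in ACE+ and 8 in ACE- cells, Dcstamp 32 in ACE+ and 5 in ACE- cells, and Calcr 0 in ACE+ and 1 in ACE- cells. Among cathepsins, Ctss and Ctsb were not called (2085 CPM in ACE+ against 1255 CPM in ACE- cells and 2483 CPM in ACE+ against 1372 CPM in ACE- cells). Legumain, encoded by Lgmn, was 4.09-fold higher [3.83 to 4.37], and Ctsg, a protease of neutrophil granules, was 3.04-fold lower [2.79 to 3.31], with no call after centring (-0.88).

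Antigen presentation genes are given by class. Of 14 measured MHC class II genes 5 were called higher and 0 lower, with 7 higher after centring. The ones called before centring were the 3 classical chains, the invariant chain and their activator. H2-Aa and H2-Ab1, the chains of I-A, stood at 2049.6 and 1880.3 CPM in ACE+ cells, against 351 and 360.2 CPM in ACE- cells. H2-Eb1 stood at 1542 CPM in ACE+ against 223 CPM in ACE- cells, and Cd74, the invariant chain, at 3709 CPM in ACE+ against 559 CPM in ACE- cells. Ciita, the activator that these genes share, was 5.61-fold higher [4.75 to 6.64]. The peptide exchange chains were not called before centring: H2-DMa stood at 232 CPM in ACE+ against 297 CPM in ACE- cells and H2-DMb1 at 223 CPM in ACE+ against 139 CPM in ACE- cells. Class II genes as a list took 1.26% of the reads in ACE+ and 0.326% in ACE- cells.

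Class I genes gave 4 higher and 0 lower of 20, with 7 higher after centring. The nonclassical genes H2-Q4, H2-Q6 and H2-Q7 stood at 171, 203 and 196 CPM in ACE+ cells, against 68.8, 28.2 and 39.7 CPM in ACE- cells. The Q6 and Q7 genes are near-identical, so the split of reads between them is uncertain. Nlrc5, the activator of class I genes, was 2.46-fold higher [2.23 to 2.71]. The classical heavy chains and beta-2 microglobulin were not called before centring, with H2-K1 at 2558 CPM in ACE+ against 1388 CPM in ACE- cells, H2-D1 at 3419.9 CPM in ACE+ against 2072 CPM in ACE- cells and B2m at 4706 CPM in ACE+ against 3039 CPM in ACE- cells. After centring B2m was called higher (log2 ratio 0.63 before and 1.34 after).

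Interferon-response genes gave 14 higher and 0 lower of 46, with a median of 0.44. The sensors Ddx58 (RIG-I) and Ifih1 (MDA5) stood at 148 and 145 CPM in ACE+ cells, against 45.9 and 69.9 CPM in ACE- cells, and the call of Ifih1 ended on centring (0.87). Rsad2, the antiviral enzyme viperin, was 3.15-fold higher [2.88 to 3.44], Oas2, an oligoadenylate synthetase, 3.56-fold higher [3.26 to 3.88], and Irf7, which amplifies interferon production, 2.17-fold higher [2.10 to 2.25]. Ifit3 was 2.80-fold higher [2.61 to 3.0], although its near-identical copy Ifit3b may share its reads. Other interferon targets were close to equal, among them Isg15 (105 CPM in ACE+ against 88.4 CPM in ACE- cells), Usp18 (67.8 CPM in ACE+ against 68.1 CPM in ACE- cells) and Ifitm3 (1108 CPM in ACE+ against 1152 CPM in ACE- cells). Of 14 measured Schlafen and guanylate-binding protein genes 4 were called higher, all of them guanylate-binding proteins, with Gbp4 at 37 CPM in ACE+ against 6.42 CPM in ACE- cells and Gbp9 at 115 CPM in ACE+ against 27.4 CPM in ACE- cells. Toll-like receptors and their adaptors gave 6 higher and 0 lower of 24. The nucleic acid sensors Tlr7 and Tlr9 were 3.19-fold higher [2.95 to 3.44] and 2.96-fold higher [2.66 to 3.29], while Tlr2, for bacterial lipopeptides, and Tlr4, for endotoxin, stood at 417 and 32.7 CPM in ACE+ cells, against 379.8 and 26.5 CPM in ACE- cells, and were not called.

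Receptors for chemokines and cytokines were among the called genes as well. Of 11 measured chemokine receptors 5 were called higher and 1 lower. Cmklr1, the receptor for chemerin, stood at 48.7 CPM in ACE+ against 5.01 CPM in ACE- cells and Ccr3 at 30.4 CPM in ACE+ against 8.01 CPM in ACE- cells. Cxcr4, which binds Cxcl12 and holds cells in bone marrow, stood at 890.3 CPM in ACE+ against 445 CPM in ACE- cells and fell just short of a call (log2 ratio 1.00, and 1.55 after centring). Ccr1 was 2.32-fold lower [2.14 to 2.52], a call that ended on centring (-0.89). Of 27 cytokine receptors 7 were called higher, among them Il10ra (611 CPM in ACE+ against 227 CPM in ACE- cells) and Ifngr1 (502 CPM in ACE+ against 219 CPM in ACE- cells), the ligand-binding chains for interleukin-10 and interferon gamma. Il2rg, the chain shared by the interleukin-2 family of receptors, was 3.21-fold higher [2.80 to 3.70]. Il3ra and Il2rb were called lower, at 35.6 CPM in ACE+ against 73.8 CPM in ACE- cells and 4.01 CPM in ACE+ against 12.7 CPM in ACE- cells, and the call of Il3ra ended on centring (-0.78).

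Integrins and other adhesion genes, which hold leukocytes to vessels and matrix, gave 9 higher and 4 lower of 27. Itga4, which pairs with beta chains to bind Vcam1, stood at 595 CPM in ACE+ against 186 CPM in ACE- cells, Itgax, which encodes CD11c, at 149.8 CPM in ACE+ against 41.5 CPM in ACE- cells and Itga9 at 31.6 CPM in ACE+ against 1.84 CPM in ACE- cells. Itgb7, the beta chain of gut-homing integrins, was lower at 373 CPM in ACE+ against 907 CPM in ACE- cells, with no call after centring (-0.97), and Itgam, which encodes CD11b, was close to equal at 108 CPM in ACE+ against 116 CPM in ACE- cells. Vcam1, an adhesion molecule that some resident macrophages carry, stood at 274 CPM in ACE+ and 37.5 CPM in ACE- cells. Among receptors for purines, sphingosine phosphate and lipid mediators, 10 of 42 were called higher and 4 lower. S1pr5, the sphingosine phosphate receptor that nonclassical monocytes use to leave bone marrow, stood at 104 CPM in ACE+ and 6.67 CPM in ACE- cells, and S1pr1 at 18.7 CPM in ACE+ against 6.84 CPM in ACE- cells, whereas S1pr4 stood at 31.6 CPM in ACE+ against 76.5 CPM in ACE- cells and was called lower before centring (-0.92 after). Adora2a, an adenosine receptor that damps inflammation, was 2.93-fold higher [2.35 to 3.67], and Entpd1, the ectoenzyme CD39 that makes adenosine precursors, 2.63-fold higher [2.34 to 2.96].

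Of 15 measured chemokine genes (of 30 listed) 10 were called higher and 0 lower. Cxcl12, a chemokine that stromal cells make in large amounts, stood at 404 CPM in ACE+ and 29.1 CPM in ACE- cells, Cxcl16 at 52.6 CPM in ACE+ and 6.51 CPM in ACE- cells and Cxcl9, an interferon gamma target, at 70.2 CPM in ACE+ and 10.8 CPM in ACE- cells. Ccl4 was 2.40-fold higher [2.22 to 2.60]. Ccl2, the ligand of Ccr2, stood at 179.960 CPM in ACE+ against 254 CPM in ACE- cells, and Ccl6 and Ccl9, which myeloid cells make at rest, at 734 and 463 CPM in ACE+ cells against 723 and 913 CPM in ACE- cells, none of the 3 called. Cytokine genes gave 4 higher and 0 lower of 18, with 9 higher after centring. Il10, an inhibitor of inflammation, stood at 10.3 CPM in ACE+ against 2.17 CPM in ACE- cells, Csf1 at 25 CPM in ACE+ against 9.59 CPM in ACE- cells and the interleukin-1 antagonist Il1rn at 65.4 CPM in ACE+ against 30.2 CPM in ACE- cells. Il1b (650.1 CPM in ACE+ against 355 CPM in ACE- cells) and Tnf (266 CPM in ACE+ against 159 CPM in ACE- cells) were called higher after centring and not before (log2 ratio 1.30 and 1.29).

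Growth factors gave 8 higher and 2 lower of 16 measured, while 30 further genes of the list were under the 5 CPM mean. Pdgfb, a growth factor for periosteal and mural cells, stood at 43.9 CPM in ACE+ and 3.75 CPM in ACE- cells, and Igf1, which promotes bone formation, at 31.2 CPM in ACE+ and 6.09 CPM in ACE- cells. Hgf was 3.27-fold higher [2.58 to 4.16], Kitl, stem cell factor, 9.90-fold higher [6.16 to 16.8], and Gdf15, a stress-induced member of the TGF-beta family, 6.39-fold higher [4.97 to 8.31]. Tgfb1, a bone matrix growth factor, stood at 363 CPM in ACE+ against 314 CPM in ACE- cells and Grn, progranulin, at 711 CPM in ACE+ against 716 CPM in ACE- cells, neither of them called. The lower genes were Nrg1, neuregulin 1 (11.9 CPM in ACE+ against 25.2 CPM in ACE- cells), and Angpt1, a ligand of the endothelial receptor Tie2 (2.88 CPM in ACE+ against 13.6 CPM in ACE- cells). Of guidance genes 5 of 12 were higher (4 after centring) and 0 lower. The semaphorin co-receptor Nrp2 stood at 105 CPM in ACE+ against 10.4 CPM in ACE- cells, Plxna1 at 25 CPM in ACE+ against 2.50 CPM in ACE- cells and Sema6d at 16.6 CPM in ACE+ against 1.0 CPM in ACE- cells, while Plxnb2 (558 CPM in ACE+ against 358 CPM in ACE- cells) and Nrp1 (91.1 CPM in ACE+ against 74.2 CPM in ACE- cells) were not called. Sema3a, a repellent of axons that bone cells also make, had 51 reads in ACE+ and 0 in ACE- cells.

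Matrix proteases and their inhibitors gave 8 higher and 1 lower of 20. Mmp14, a membrane collagenase, stood at 78.1 CPM in ACE+ against 8.93 CPM in ACE- cells, and Mmp13, a collagenase of bone and cartilage, at 73.2 CPM in ACE+ against 11.3 CPM in ACE- cells. Timp2, an inhibitor of these enzymes, was 3.02-fold higher [2.68 to 3.40], and Plau, urokinase, 2.68-fold higher [2.30 to 3.14]. Of 10 measured genes of the peptidase and renin-angiotensin list 5 were called higher (4 after centring), 0 lower and 5 neither. The list median was 0.87, and the sort gene Ace is one of the higher genes. Raising the minimum mean to 20 CPM left 7 members, 2 of them called higher, and a median of 0.34. Besides Ace, the higher genes included Agt, angiotensinogen, with 170 reads in ACE+ and 6 in ACE- cells. Anpep, aminopeptidase N, was also called higher, at 9.50 CPM in ACE+ against 2.67 CPM in ACE- cells. So was Lnpep, the angiotensin IV receptor, at 289 CPM in ACE+ against 121 CPM in ACE- cells, with no call after centring (0.68). Agtr1a, the gene of the angiotensin II receptor, had 11 reads in ACE+ and 1 in ACE- cells.

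The remaining largest increases were of mixed kind. Dnah12, a dynein heavy chain known from cilia, stood at 55 CPM in ACE+ against 0.501 CPM in ACE- cells, Slc12a2, the sodium, potassium and chloride cotransporter NKCC1, at 95.9 CPM in ACE+ against 2.84 CPM in ACE- cells, and Smpdl3b, a membrane phosphodiesterase of macrophages, at 78.1 CPM in ACE+ against 4.25 CPM in ACE- cells. Adrb1, the beta-1 adrenergic receptor, had 194 reads in ACE+ and 2 reads in ACE- cells, a ratio of 101-fold [27.7 to 843]. Tgfbr3, the TGF-beta co-receptor betaglycan, stood at 28.5 CPM in ACE+ against 1.0 CPM in ACE- cells, Rasgrp1, an exchange factor for Ras, at 51.9 CPM in ACE+ against 2.84 CPM in ACE- cells and Tmem26, a membrane protein, at 44.6 CPM in ACE+ against 2.17 CPM in ACE- cells. On the lower side, Cd7, a lymphoid surface protein, stood at 5.32 CPM in ACE+ against 47.2 CPM in ACE- cells and Klk8, a serine protease, at 1.05 CPM in ACE+ against 10.1 CPM in ACE- cells. C1galt1c1, the chaperone of an O-glycan enzyme, stood at 62.3 CPM in ACE+ against 316 CPM in ACE- cells, Upb1, an enzyme of pyrimidine breakdown, at 10.03 CPM in ACE+ against 51.6 CPM in ACE- cells and Lmo1, a transcriptional adaptor, at 8.54 CPM in ACE+ against 43.8 CPM in ACE- cells. Hal, histidine ammonia lyase, stood at 3.66 CPM in ACE+ against 20.6 CPM in ACE- cells. Depdc1a, Mxd3, Cdkn3, Cenpk and Cenps, all known from dividing cells, were among the 20 largest decreases too, between 4.93-fold and 5.34-fold lower.

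Immediate early genes, which rise within minutes of a stimulus or of tissue dissociation, gave 9 higher and 0 lower of 29, with a median of 0.71 and 17 higher after centring. They took 3.79% of the reads in ACE+ and 1.98% in ACE- cells. Fos and Zfp36, an mRNA decay factor, were among the 10 genes with the highest CPM in the ACE+ library, at 5493 CPM in ACE+ against 3614 CPM in ACE- cells and 5104 CPM in ACE+ against 2607 CPM in ACE- cells. Fos was not called, and Zfp36 was called higher after centring and not before (log2 ratio 0.97 before and 1.22 after). Zfp36l1, a relative of Zfp36, stood at 294 CPM in ACE+ against 34.5 CPM in ACE- cells, Socs3, a brake on cytokine signalling, at 418 CPM in ACE+ against 119 CPM in ACE- cells, and Egr2 at 42.6 CPM in ACE+ against 10.8 CPM in ACE- cells. Dual-specificity phosphatases, which switch off MAP kinases, gave 4 higher of 13, with Dusp16 16.3-fold higher [12.4 to 21.9] and Dusp6 2.77-fold higher [2.61 to 2.94]. The heat shock genes Hspa1a and Hspa1b, near-identical copies whose reads cannot be parted with certainty, stood at 621 and 941 CPM in ACE+ cells, against 249 and 298 CPM in ACE- cells, the 2 higher genes of 20 heat shock and chaperone genes. The share called higher on that list is near the 9.46% of all measured genes, and its median was 0.02. Nr4a1, Klf2 and Klf4 belong to the immediate early genes as well as to the monocyte regulators above, and the part of dissociation in their levels was not tested.

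Genes of DNA replication and mitosis were lower in ACE+ cells: 35 of 54 measured members were called lower and 0 higher, with a median of -1.16, and 29 lower calls were left after centring. Stmn1, a microtubule destabiliser of dividing cells, stood at 106 CPM in ACE+ and 434 CPM in ACE- cells, and Hmgb2, a chromatin protein, at 375 CPM in ACE+ and 1259 CPM in ACE- cells. Tyms, which makes thymidylate, stood at 26.2 CPM in ACE+ against 104 CPM in ACE- cells, Ccne2, a cyclin of S phase entry, at 13.1 CPM in ACE+ against 53.8 CPM in ACE- cells and Birc5, survivin, at 51.2 CPM in ACE+ against 174 CPM in ACE- cells. Mki67, the Ki-67 antigen (336 CPM in ACE+ against 508 CPM in ACE- cells), and Pcna, the sliding clamp (275 CPM in ACE+ against 512 CPM in ACE- cells), were lower in level without a call. Of the inhibitors of cyclin-dependent kinases in this list, Cdkn1a stood at 167 CPM in ACE+ against 156 CPM in ACE- cells and Cdkn1b at 140.4 CPM in ACE+ against 129 CPM in ACE- cells, neither of them called. Of 23 measured kinesin motors 8 were called lower, among them the mitotic motors Kif18a (8.54 CPM in ACE+ against 38 CPM in ACE- cells) and Kif22 (45.8 CPM in ACE+ against 128 CPM in ACE- cells), while Kif21b stood at 210.3 CPM in ACE+ against 76.6 CPM in ACE- cells and was the one called higher. Histone genes of the replication clusters gave 3 lower of 9 measured, or 1 after centring, and 46 were below the mean.

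The mitotic cyclin gene Ccnb2 stood at 53.4 CPM in ACE+ and 187 CPM in ACE- cells. Its promoter is shown as an example of the dividing-cell group, since it carries repeated letters known from G2 and M phase genes. Capitals mark CCAAT, the NF-Y box, and TTTGAA, the core of the CHR element, on either strand without overlap.
Ccnb2: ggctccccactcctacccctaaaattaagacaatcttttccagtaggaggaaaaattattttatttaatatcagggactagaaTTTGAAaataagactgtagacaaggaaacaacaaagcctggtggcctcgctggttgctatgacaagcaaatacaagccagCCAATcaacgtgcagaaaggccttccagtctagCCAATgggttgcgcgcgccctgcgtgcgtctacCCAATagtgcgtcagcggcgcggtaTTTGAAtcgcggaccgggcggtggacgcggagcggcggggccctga
The window lies at chr9:70421505-70421804, minus strand, of RefSeq on GRCm38.p6. CCAAT starts at positions -87, -54 and -21 and TTTGAA at -167 and 5, counted from the start. Of the 32851 windows, 37.4% hold CCAAT and 17.9% TTTGAA.

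Genes of protein synthesis and energy supply were lower in ACE+ cells, and fewer of them were called after centring by gene length. Of 82 measured cytosolic ribosomal protein genes 54 were called lower and 0 higher, with a median of -1.15. After centring by gene length the median was -0.61 and 12 were called lower. Their share of reads was 4.37% in ACE+ and 8.47% in ACE- cells. Rpl39 stood at 165 CPM in ACE+ against 683 CPM in ACE- cells, and Rplp0, the acidic stalk protein, at 1818 CPM in ACE+ against 3492 CPM in ACE- cells. Of 78 nuclear subunits of the respiratory chain and ATP synthase 42 were called lower, with 9 after centring, and of 76 mitochondrial ribosomal protein genes 22, with 10 after centring. Ndufc1, of complex I, stood at 9.59 CPM in ACE+ against 38 CPM in ACE- cells and Atp5e, of the ATP synthase, at 77.7 CPM in ACE+ against 281 CPM in ACE- cells. The mitochondrially encoded genes gave 5 lower of 12 and 1 after centring, and mt-Co1, the gene of highest CPM in the ACE+ library, stood at 16306 CPM in ACE+ against 20502 CPM in ACE- cells. Proteasome subunits gave 13 lower of 42 and 3 after centring, with Psma7 at 193 CPM in ACE+ against 580.1 CPM in ACE- cells. In glycolysis, the pentose phosphate pathway and the citric acid cycle 2 of 45 enzymes were called higher (Eno3 and Pfkfb3) and 6 lower, among them Pkm (848 CPM in ACE+ against 1733 CPM in ACE- cells, -0.96 after centring), and 0 of the lower calls were left after centring.

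**Figure D5:**
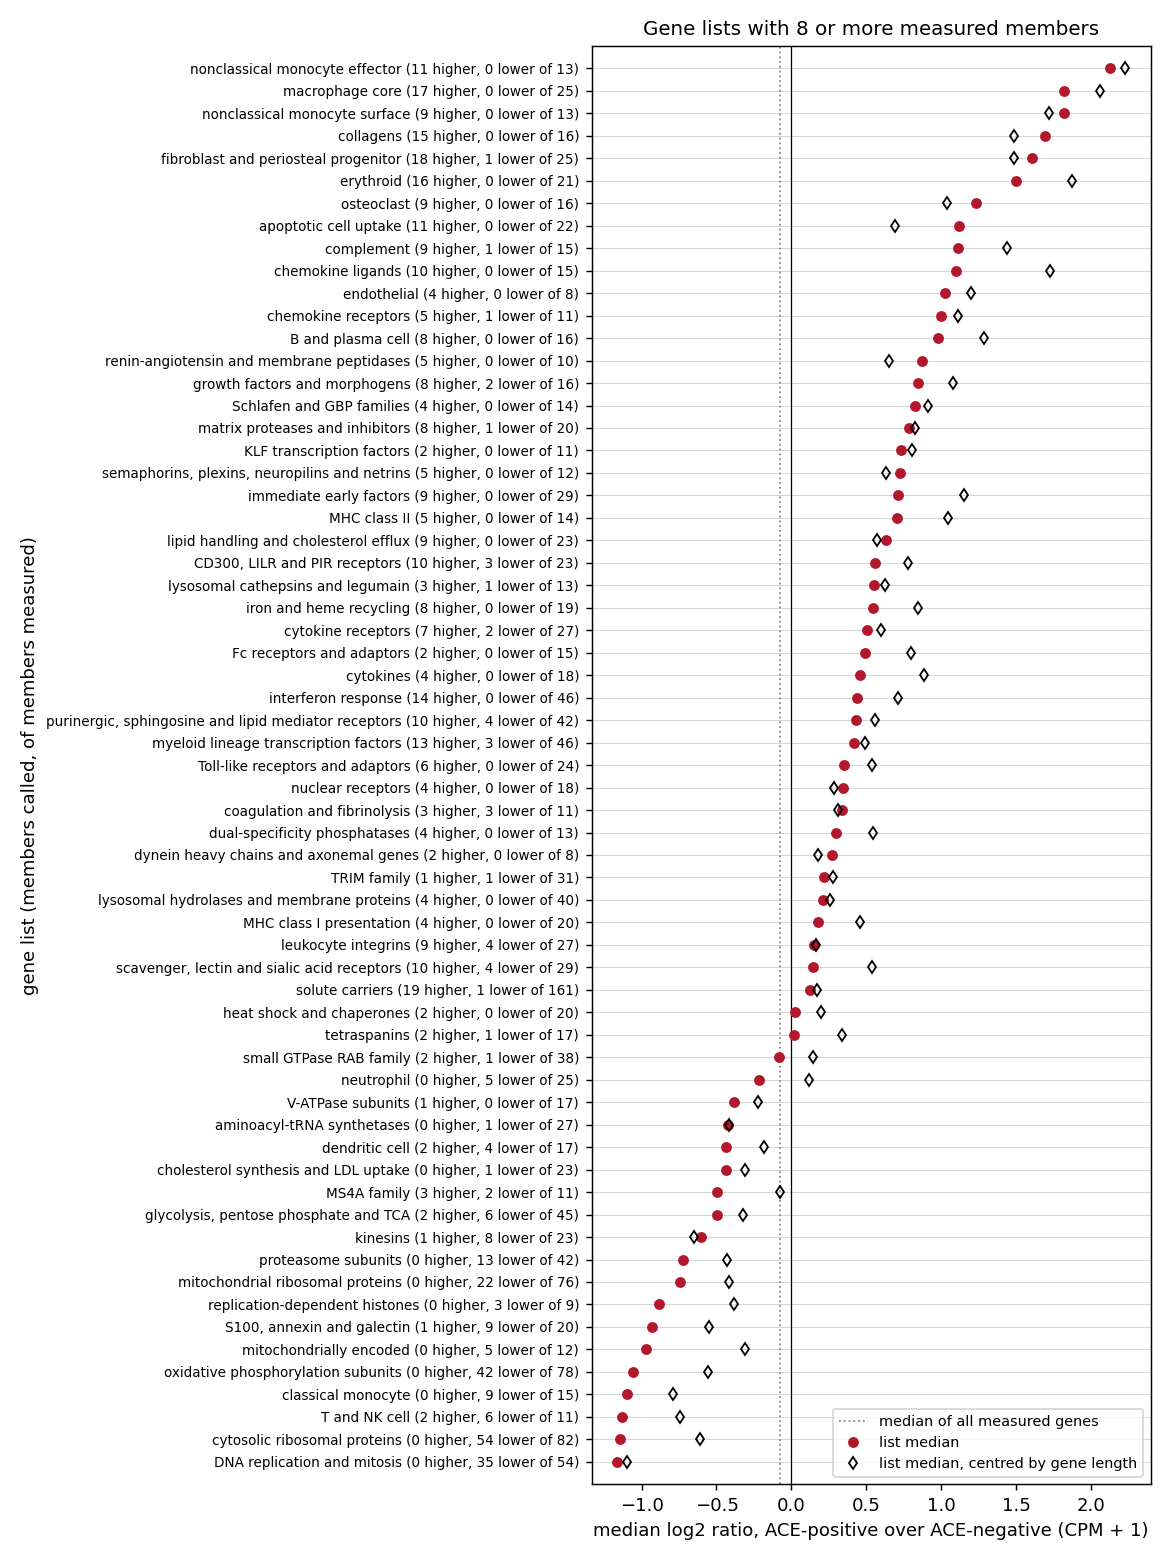
Median log2 ratio of ACE+ over ACE- (horizontal axis, CPM + 1) of gene lists with at least 8 measured members, as measured (red circles) and after centring by gene length (open diamonds), with a dotted line at the median of all measured genes. Nonclassical monocyte and macrophage lists lie at the top, followed by the collagen, fibroblast and erythroid lists. Dividing-cell, ribosomal, T and NK cell and classical monocyte lists lie at the bottom. The diamonds of the ribosomal, respiratory chain and mitochondrial lists lie closer to 0.

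Markers of other cells were present in both libraries, and their part in the results above was not tested. Neutrophil granule and surface genes had a summed level of 15132 CPM in ACE+ and 21556 CPM in ACE- cells over 28 genes, none of them at 0 reads in either library. Ngp, a protein of secondary granules, stood at 3420.0 CPM in ACE+ against 3588 CPM in ACE- cells and S100a9, of calprotectin, at 3392 CPM in ACE+ against 5777 CPM in ACE- cells, with Ngp among the 10 genes of highest CPM in the ACE+ library. Of 25 measured neutrophil genes 0 were called higher and 5 lower, against 3 higher and 1 lower after centring, where the median log2 ratio was 0.12 in place of -0.22. Prtn3, a protease of early granules, stood at 143 CPM in ACE+ against 477 CPM in ACE- cells, and Ly6g, the surface marker of mature neutrophils, at 59 CPM in ACE+ against 47.9 CPM in ACE- cells.

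Markers of fibroblasts and bone-forming cells were higher in ACE+ cells. Over 34 fibroblast and periosteal progenitor genes the summed level was 4213 CPM in ACE+ and 1550.1 CPM in ACE- cells, with 18 higher and 1 lower of 25 measured (16 higher after centring). This list includes Cxcl12 and Ctsk, described above. Col1a1 and Col1a2, the chains of bone collagen, stood at 1391 and 1095 CPM in ACE+ cells, against 401 and 364 CPM in ACE- cells, whereas Dcn (37.9 CPM in ACE+ against 20.9 CPM in ACE- cells), Lum (25.3 CPM in ACE+ against 18.9 CPM in ACE- cells) and Col3a1 (13.8 CPM in ACE+ against 15.4 CPM in ACE- cells) were not called. Of 16 measured collagen genes 15 were higher (13 after centring), and collagens took 0.304% of the reads in ACE+ and 0.0852% in ACE- cells. Among osteoblast genes Ibsp, bone sialoprotein, stood at 54.7 CPM in ACE+ against 5.51 CPM in ACE- cells and Bglap2 at 38.6 CPM in ACE+ against 15.3 CPM in ACE- cells. Bglap, osteocalcin, was not called, at 42.2 CPM in ACE+ against 23.6 CPM in ACE- cells, and the osteocyte gene Sost had 3 reads in ACE+ and 0 in ACE- cells. Osteoblast and osteocyte genes summed to 441 CPM in ACE+ and 172 CPM in ACE- cells, and chondrocyte genes to 123 CPM in ACE+ and 48.2 CPM in ACE- cells. Of 17 osteoblast and osteocyte genes listed 6 were measured, with 3 higher (5 after centring) and 0 lower. The chondrocyte genes Col2a1, Col11a1 and Col11a2 were called higher, with 30.7 CPM in ACE+ and 8.84 CPM in ACE- cells for Col2a1, and the call of Col11a1 ended on centring (1.17 before and 0.60 after). Matn3 and Col10a1 were at 0 reads in ACE+ cells.

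Endothelial genes summed to 262 CPM in ACE+ and 112 CPM in ACE- cells over 19 listed genes, none at 0. Kdr, the VEGF receptor VEGFR2, stood at 23.3 CPM in ACE+ against 1.59 CPM in ACE- cells and Cdh5, of endothelial junctions, at 14 CPM in ACE+ against 4.09 CPM in ACE- cells, and 4 of 8 measured members were called higher. Mural, muscle and Schwann cell genes gave 1 higher of 4 (Abcc9, 13.3 CPM in ACE+ against 1.25 CPM in ACE- cells). Of 10 adipocyte genes listed 3 were measured and 4 lay below the 5 CPM mean. All 3 measured were called higher, among them Fabp4, described above, and Adipoq, adiponectin, at 19.1 CPM in ACE+ against 2.09 CPM in ACE- cells. The adipocyte list summed to 11.2 CPM in ACE- cells, so its members passed the mean mainly through the ACE+ library. With no minimum mean 3 of 7 were higher, with a median of 0.52. Erythroid genes gave 16 higher and 0 lower of 21, with sums of 1411 CPM in ACE+ and 689 CPM in ACE- cells. Hba-a1, a globin with the near-identical copy Hba-a2, stood at 245 CPM in ACE+ against 116 CPM in ACE- cells, and Ermap, a red cell surface protein, at 36.4 CPM in ACE+ against 4.84 CPM in ACE- cells. B cell genes gave 8 higher and 0 lower of 16, with Pax5 at 21.6 CPM in ACE+ against 4.51 CPM in ACE- cells.

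T and NK cell genes summed to 148 CPM in ACE+ and 214 CPM in ACE- cells, with 2 higher and 6 lower of 11 measured, and 4 lower after centring. Gzma, a granzyme, stood at 3.84 CPM in ACE+ against 21.7 CPM in ACE- cells, Nkg7 at 8.54 CPM in ACE+ against 25.1 CPM in ACE- cells (no call after centring, -0.75) and Cd3e, of the T cell receptor, at 0.349 CPM in ACE+ against 0.667 CPM in ACE- cells. Cd4, which mouse monocytes can also carry, was one of the 2 higher genes, at 27.6 CPM in ACE+ against 5.84 CPM in ACE- cells. Dendritic cell genes gave 2 higher and 4 lower of 17, and 0 higher and 4 lower of the 12 with a mean of at least 20 CPM. The growth factor receptor Flt3 was called lower, at 24.4 CPM in ACE+ against 75.8 CPM in ACE- cells. The lineage factor Zbtb46, at 7.85 CPM in ACE+ against 11.7 CPM in ACE- cells, was not called. Basophil and mast cell genes gave 3 lower of 7, or 1 after centring, and Mcpt8, a basophil protease, stood at 28 CPM in ACE+ against 61 CPM in ACE- cells, with no call after centring (-0.39). Platelet genes gave 1 higher and 2 lower of 3, with Rgs18, a regulator of G proteins, at 31.1 CPM in ACE+ against 106 CPM in ACE- cells.

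Set against the label of resident macrophages, the ACE+ library held macrophage genes (Csf1r, Adgre1, C1qa to C1qc, Mertk) beside nonclassical monocyte genes, and the ACE- library held Csf1r and Adgre1 at 675 and 163 CPM with C1qa at 42.1 and Mertk at 1.75 CPM. Both libraries held classical monocyte and neutrophil genes at high levels, so the fractions are named here by their sort and not by a cell type.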

How the data were processed

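The ACE table was used alone. It holds 1 column of size-factor-normalised signal per library, made by the authors from read counts, per the file headers. HISAT2 and the build GRCm38 are named in the submitters' processing notes. Per the labels' protocols, Trizol was used for total RNA and an Illumina TruSeq kit for the libraries. The gene counter, its strand setting and the annotation are not stated by the labels or headers, so a gene and its antisense partner cannot be told apart. The authors' deposited linear fold (a ratio), log2 fold, p-value and q-value columns were not used. Within a library 100% of values were whole multiples of 1 read's worth, within 0.001 reads, so whole reads were recovered and used in place of counts, for which the comparison had been laid out. There were 0 further per-sample columns.

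Reads were scaled to CPM with TMM effective library sizes (edgeR 4.0.16, R 4.3.3). Level intervals are exact Poisson and fold intervals exact conditional binomial (Clopper-Pearson), at 95%. A count of 0 allows 3 reads, or 0.262 CPM in the ACE+ and 0.250 CPM in the ACE- library, and intervals and floors cover counting error only, as reads carry no molecular identifiers. Log2 ratios were taken on CPM + 1, which understates those of genes with few reads. Neither the quasi-likelihood test of edgeR nor DESeq2 could be fitted to these reads, since 1 library a group leaves no residual degrees of freedom. Centring by gene length subtracted the median log2 ratio in 20 bins of listed length. The steps were tested on simulated counts with counting error alone, where changes beyond 2-fold were planted in genes of at least 20 CPM. This test does not cover spread between replicates, changes near 2-fold or genes with means nearer 5 CPM. Other steps used Python 3.11.15, numpy 2.4.6, pandas 2.3.3 and scipy 1.17.1.

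Members and the 70 gene lists were chosen with earlier results of these data known. Named genes are the sort markers, the 20 largest increases and 20 largest decreases among called genes, the 10 of highest CPM per library, and from each list the 3 of highest mean CPM and the 5 of largest ratio. Others were named after their values were seen, to complete a family. Some genes that this rule names are not reported here.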

Additional observations from a re-analysis of the deposited data

How the results depend on the processing

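The number of genes called higher moved beyond 1.5 times the 913 given above to 1426 with a mean of at least 1 CPM, to 571 with a mean of at least 20 CPM, to 1518 with no minimum and to 225 with a log2 ratio of at least 2. The number called lower moved beyond it to 469 after centring by gene length and to 26 with a log2 ratio of at least 2, against 832. Plain totals gave 1158 higher and 565 lower and moved the median of all genes by 0.13 on the log2 scale, and DESeq2 size factors gave 897 and 855. After centring, 723 of the higher and 378 of the lower genes kept their call. None of the 477 named genes changed direction with a call under the settings run, and at most 42 lost their call on rescaling or centring. List medians changed sign for T and NK cell genes (0.44 at a mean of at least 20 CPM), neutrophil genes (0.12 after centring), platelet genes (0.16 at a mean of at least 1 CPM) and RAB genes (0.05 with plain totals and 0.14 after centring). No paired analysis was possible because each group holds 1 library, and for the same reason no replicate could be left out. At these depths a gene with fewer than 3 reads cannot be told from one with 0.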

Other observations

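Some genes below the 5 CPM mean, or near it, had reads in 1 library and 0 in the other. Gjb2, which encodes the gap junction protein connexin 26, had 103 reads in ACE+ and 0 in ACE- cells. With 0 taken as a floor of 3 reads this is 35.9-fold higher. Folds on this floor leave out counting error in the library that holds the reads. Ldb2, a transcriptional adaptor, had 44 reads in ACE+ cells, Adamdec1, a metalloprotease of gut macrophages, 42, Heph, a ferroxidase that works with ferroportin, 37, Cx3cl1, the ligand of Cx3cr1, 30 and Bmp4, a bone morphogenetic protein, 28, each with 0 in ACE- cells. On the same floor these are 15.3-fold, 14.6-fold, 12.9-fold, 10.5-fold and 9.75-fold higher in the order given. Klra9, an NK cell receptor from a family of closely similar genes that may share reads, went the other way. Klra9 had 0 reads in ACE+ and 31 in ACE- cells, 9.89-fold lower on that floor. The histone gene H2bc14 had 0 in ACE+ and 30 in ACE- cells, 9.57-fold lower on that floor. Bcl2a1b, of the BCL2 family, had 26 reads in ACE+ and 0 in ACE- cells, and since near-identical copies exist its reads may belong to another of them.

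Solute carriers, membrane transporters of ions, sugars and amino acids, gave 19 higher and 1 lower of 161 measured, with a median log2 ratio of 0.12. The share called higher was not far above the 9.46% of all measured genes. Slc7a8, an amino acid exchanger, stood at 51.8 CPM in ACE+ against 7.84 CPM in ACE- cells, Slc15a2, a transporter of small peptides, at 21.3 CPM in ACE+ against 3.92 CPM in ACE- cells and Slc37a2, a sugar phosphate transporter of macrophages, at 50.1 CPM in ACE+ against 11 CPM in ACE- cells. MS4A genes, which encode membrane proteins with 4 spans, gave 3 higher and 2 lower of 11. Ms4a7 and Ms4a4a, known from macrophages, stood at 63.7 and 98.7 CPM in ACE+ cells, against 10.01 and 27.4 CPM in ACE- cells, while Ms4a6c, 391 CPM in ACE+ against 628 CPM in ACE- cells, was not called. Tetraspanins gave 2 higher and 1 lower of 17, counts near the shares of all measured genes, with Cd81 at 59.6 CPM in ACE+ against 16.4 CPM in ACE- cells and Cd53, of leukocytes, at 679 CPM in ACE+ against 696 CPM in ACE- cells. TRIM ubiquitin ligases gave 1 higher and 1 lower of 31, and RAB GTPases, which steer vesicles, 2 and 1 of 38, with Rab19 at 30.1 CPM in ACE+ against 4.0 CPM in ACE- cells and Rab3d at 76.2 CPM in ACE+ against 181 CPM in ACE- cells. Aminoacyl-tRNA synthetases gave 0 higher and 1 lower of 27, the lower one being the mitochondrial enzyme Lars2, at 31.1 CPM in ACE+ against 73.8 CPM in ACE- cells. Among coagulation genes 3 of 11 were higher and 3 lower (1 after centring), with Tfpi, tissue factor pathway inhibitor, at 37 CPM in ACE+ against 11.2 CPM in ACE- cells and Thbs1, thrombospondin, at 407 CPM in ACE+ against 322 CPM in ACE- cells.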
